A study of Homo sapiens with 6 samples.

Results

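The fragments described here come from the 5' part and the D arm of tRNA-Glu, the transfer RNA that carries glutamate. They were counted by small RNA sequencing among the tRNA-derived fragments (tRFs) of A375, a long-established line of human melanoma cells. Wild-type cells (WT) and cells that lack the enzyme DUS1L (knockout, KO) gave 3 libraries each. CRISPR/Cas9 was used to disrupt DUS1L, clones were then picked, and the WT cells were grown alongside untargeted. From how many clones the KO libraries came is not known here, so every p-value reflects only how far these libraries spread. The table holds tRNA fragments only, so neither the loss of DUS1L nor melanoma markers could be checked in it. The rule for members uses only fragment type, length and sequence, but it was set with earlier results of these data known. A 5' member is a 5' fragment of 19 or more bases whose identifier begins with the code of the Glu-CTC start (87R8WP) or of the Glu-TTC start (86V8WP), and an internal member is an internal tRF that shares 14 or more consecutive bases with the longest of these 5' rows. The rule found 142 of 3443 fragments, 20 of them 5' tRFs and 122 internal, which held 9.60% of all counts. All 20 of the 5' members carried the Glu-CTC code. In the table used here 0 rows matched the Glu-TTC code, so that series was not analysed here, and nothing about its level follows from this.

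A tRNA is cut into fragments mainly in its loops. Cuts in or near the anticodon loop give long 5' fragments, and cuts in the D loop, near the 5' end, give shorter 5' fragments and internal pieces. DUS1L is an enzyme that converts uridine to dihydrouridine in the D loop of tRNA, and 5' fragments of tRNA-Glu are among the abundant tRFs of many human cells.

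The sequences below show the start of both forms and the internal rows that end at base 26. Each is written 5' to 3' as DNA, decoded from its identifier, with capitals at base 16 and base 19 counted from 1 at the 5' end of the tRNA. Base 16 is a T in the D loop, the region that DUS1L acts on, and base 19 separates the 2 forms found.
Major form, 25 bases (tRF-25-87R8WP9N1E): tccctggtggtctagTggTtaggat
Major form, 26 bases (tRF-26-87R8WP9N1EE): tccctggtggtctagTggTtaggatt
Minor form, 26 bases (tRF-26-87R8WP9I1EE): tccctggtggtctagTggCtaggatt
Internal, bases 8 to 26 (tRF-19-9MV47PIE): tggtctagTggTtaggatt
Internal, bases 10 to 26 (tRF-17-SX73V2Q): gtctagTggTtaggatt

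The Glu-CTC code turned out to cover 2 forms of the tRNA that differ by T19C. Form was read from base 19 alone. Of the 5' rows, 10 had the major form and 10 the minor form, and of the internal rows 76 had the major and 46 the minor form. The 76 include 13 rows that differ from both forms at other bases. All 142 members covered both base 16 and base 19, and all 142 had T at base 16. In the transcripts searched, the minor form did not bear out its Glu-CTC label. Its longest row matched the reference exactly at the first base of 3 tRNA-Glu genes with the anticodon TTC. All 56 minor-form members were found whole in these genes, which for rows inside the longest row follows from its match. The 3 genes are TRE-TTC3-1 (plus strand, chr1:16872583-16872654), TRE-TTC4-1 (minus strand, chr1:16535279-16535350) and TRE-TTC4-2 (minus strand, chr1:161422093-161422164), in GRCh38. Each lies in an exon of another annotated gene, BX284668.2 and LINC01783 on the same strand and AL592295.4 on the opposite strand. The sequence also occurred at chr1:121001031-121001060 (minus strand, in an exon of LINC00623, which is on the plus strand), where the RefSeq table used here lists no tRNA gene.

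The 10 internal members that ran past base 30 all had the minor form, and all 10 were found whole in these genes. Of these 10, the rows of bases 16 to 37 (4 counts) and 15 to 37 (1 count) span the whole anticodon, bases 34 to 36. The major form matched 0 of the reference transcripts searched, so its parent, tRNA-Glu-CTC by its code, was not placed on the genome. Genes outside these transcripts were not searched, so a Glu-CTC gene with the minor form's sequence could have been missed. Single rows are given by form below, and some shares are given over both forms.

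Library totals ranged from 15742 to 32754 counts, of which 1256 to 4134 belonged to the Glu members. Pairs of libraries of the same group differed by more than sampling noise, since chi-square divided by its degrees of freedom was at least 2.56 over fragments with 10 or more counts. Wild-type replicate 3 stood apart from its group: its log2 values correlated with those of WT replicates 1 and 2 at 0.771 and 0.769 over 235 fragments, where these correlated with each other at 0.857 and the KO libraries among themselves at 0.823 to 0.873. Several of the values below are also given without it.

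Glu 5' fragments took a smaller share of the KO libraries. Their share was 11.7%, 10.3% and 7.86% in WT replicates 1 to 3 and 6.98%, 7.0% and 7.19% in KO replicates 1 to 3, a mean of 9.94% ± 1.94 against 7.06% ± 0.113 (SD, n = 3 each). Every KO library lay below every WT library, and WT replicate 3 lay nearest to the knockout. The difference of means was -2.88 percentage points, and it was -3.92 without WT replicate 3. The major form accounted for most of it, at 9.26% ± 1.85 in WT and 6.52% ± 0.0689 in KO libraries. The minor form stood at 0.681% ± 0.108 and 0.539% ± 0.0495, also without overlap. Internal Glu fragments took 0.823% ± 0.0852 and 0.795% ± 0.0521 of counts, with overlap. All other 5' fragments of 19 or more bases took 43.7% ± 4.31 and 43.6% ± 1.01, and all other internal fragments 28.4% ± 4.65 and 39.5% ± 1.00. A share is relative to everything else in its library, so a lower share cannot be told apart from more of other fragments, nor fewer cells with a fragment from less of it per cell.

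Single fragments were compared with edgeR's quasi-likelihood test over the 235 fragments that passed a filter on low counts, with Benjamini-Hochberg adjustment over all of them. Of the 142 Glu members 12 passed that filter, 9 of them 5' and 3 internal, and these held 93.1% of the members' counts. Each of the 12 reached the filter's count level in at least 1 library of each group. The internal rows of bases 14 to 30 and 15 to 30 reached it in every WT library but in KO replicate 3 only. They therefore passed through the WT libraries. The major-form 5' row of 25 bases stayed under that level in WT replicate 2. Of the 12, 2 were higher and 6 lower in the knockout at an adjusted p under 0.05. Of all fragments tested, 25.5% were higher and 28.1% lower, 53.6% in all. Groups did not overlap in 58.7% of all fragments tested. The number of calls among the Glu members does not by itself set them apart. Their median log2 fold change was -0.62, against -0.01 over all fragments tested. It was -0.13 over the 9 tested 5' members and -0.96 over the 3 tested internal members, which overlap in sequence. For other 5' fragments of 19 or more bases the median was 0.08, and for other internal fragments 0.33.

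In the major form the 5' rows of 25 and 26 bases rose, and the rows of 27 and 28 bases did not pass the test. Values are counts per 1e6 counts (CPM), with edgeR's library scaling by trimmed mean.

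The 25-base row was at 924, 388 and 1120.0 CPM in WT and 2645, 2625 and 1666 CPM in KO replicates 1 to 3. All 3 KO libraries lay above all 3 WT libraries. Its log2 fold change was 1.45 (edgeR, SE 0.373, adjusted p = 0.00840), about 2.73-fold, from a mean of 27.5 counts per library, and 1.75 without WT replicate 3. Of the members' calls, this was the one kept in each of its 12 alternative fits, with adjusted p from 0.00477 to 0.0481.

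The 26-base row was at 2772, 2018 and 3808 CPM in the WT and 6267, 6493 and 3938 CPM in the KO libraries. Again the groups did not overlap, but WT replicate 3 and KO replicate 3 lay close together. Its log2 fold change was 0.94 (edgeR, SE 0.309, adjusted p = 0.0250), and 1.24 without WT replicate 3 (edgeR adjusted p = 0.00701). The call held in 6 of 13 alternatives, where the adjusted p ranged from 0.00701 to 0.237.

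For the 27-base row the CPM were 5182, 2018 and 3752 in the WT and 5347, 4766 and 4645 in the KO libraries, with overlap. Its log2 fold change was 0.41 (edgeR, SE 0.321, adjusted p = 0.308), with a 95% interval from -0.30 to 1.11, and it was 0.78 without WT replicate 1 (edgeR adjusted p = 0.0807) and 0.09 without WT replicate 2. The 28-base row had 19764, 17386 and 11424 CPM in WT and 15178, 14230.3 and 14844 CPM in KO libraries, with overlap. Its log2 fold change was -0.13 (edgeR, SE 0.270, adjusted p = 0.695), with an interval from -0.73 to 0.46, and it was 0.08 without WT replicate 1 and -0.29 without WT replicate 3.

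In the minor form, 3 rows were tested and the longest fell. The 30-base row was at 3455, 2096 and 2632 CPM in the WT and 1437, 1589 and 1666 CPM in the KO libraries. The groups did not overlap, and the log2 fold change was -0.82 (edgeR, SE 0.277, adjusted p = 0.0289), a call that held in 5 of 12 alternatives. The 29-base row had 5222, 4036 and 2128 CPM in WT and 2932, 2072 and 3130.3 CPM in KO libraries. With that overlap its log2 fold change was -0.48 (edgeR, SE 0.340, adjusted p = 0.250), and -0.72 without WT replicate 3 (edgeR adjusted p = 0.0418). Without WT replicate 1 it was -0.12 (edgeR adjusted p = 0.808), and without KO replicate 2 it was -0.26 (edgeR adjusted p = 0.617). The 28-base row had a log2 fold change of 0.04 (edgeR, SE 0.359, adjusted p = 0.923), and ranged from -0.21 without KO replicate 3 to 0.31 without KO replicate 1. The minor-form row of 26 bases was too rare to pass the filter, at 4, 2 and 3 counts in WT and 6, 6 and 4 in KO replicates 1 to 3.

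The forms were set against each other at 28 bases, as the log2 ratio of major to minor counts with 0.5 added, by a two-sided exact permutation test, whose smallest possible p is 0.1 here. The ratio was 3.75, 3.77 and 3.82 in WT and 3.92, 3.83 and 3.18 in KO libraries. The groups overlapped, with KO replicate 3 the lowest, and the difference was -0.14 (exact p = 1.0, and 1.0 after adjustment over 3 lengths). A difference between the forms was therefore not shown at this length. Of all 5' Glu counts, the minor form made up 6.90% ± 0.671 in WT and 7.63% ± 0.583 in KO libraries, with overlap.

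Set as shares of the 5' Glu counts, shorter fragments weighed more in the knockout. Rows of 26 or fewer bases made up 2.66%, 2.29% and 6.56% of these counts in WT and 11.7%, 13% and 7.54% in KO replicates 1 to 3. The groups did not overlap, but WT replicate 3 lay nearer to KO replicate 3 than to the other WT libraries. Without it the WT mean was 2.48%, against 10.7% in the knockout. Rows of 28 bases made up 14.6% ± 0.696 in WT and 19.5% ± 0.167 in KO libraries, a higher share without overlap, although their level did not pass the test. The mean length, weighted by counts, was 28.94, 28.94 and 28.81 bases in WT and 28.46, 28.45 and 28.63 bases in KO libraries. The WT and KO means were 28.89 and 28.50 bases in the major form and 28.96 and 28.68 bases in the minor form, both without overlap. For the minor form alone, the shares of both row groups above overlapped. Its rows of 26 or fewer bases made up 3.93% ± 1.44 in WT and 8.38% ± 4.06 in KO libraries, from 41 counts in all. Its rows of 28 bases made up 14.1% ± 1.59 and 18.8% ± 4.05. As shares of 1 total these values move together, and no test was made of them.

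Other 5' fragments were also called higher at 25 and 26 bases. Of 51 others tested, 13 were higher and 8 lower, which is 25.5% and 15.7%, or 41.2% in all. Of 7 with 25 or 26 bases, 5 were higher and 0 lower (edgeR), with a median log2 fold change of 1.37. Without adjustment the count lower was also 0, as it was with DESeq2. Many of these rows overlap in sequence within a tRNA, so they are not independent. With rows of 31 or more bases included, the mean length of the other 5' fragments was 29.96 ± 0.440 bases in WT and 31.41 ± 0.537 in KO libraries.

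The 5' rows missing from the test were few in counts. The 11 untested 5' members had between 1 and 26 counts over all 6 libraries, and those of 19 to 24 bases, 8 rows of both forms, held 31 counts in all. The rows just under the length limit end before base 19 and so belong to neither form. The start of 16 bases had 7, 2 and 15 counts in WT and 12, 9 and 23 in KO replicates 1 to 3, and that of 17 bases had 2, 1 and 2 counts and 4, 3 and 4 counts.

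In their summed shares, internal Glu fragments differed between groups by where they end. All 3 tested internal members began in the D arm, at base 13, 14 or 15, ended at base 30 and fell. Of 118 other internal fragments tested, 12.7% fell, 35.6% rose and 48.3% did either. The rows of bases 14 to 30 and 15 to 30 entered the test through the WT libraries, where they were high. That all 3 fell is therefore partly set by the filter. The row of bases 13 to 30 went from 1848, 1397 and 1064 CPM in WT to 747, 898 and 606 CPM in KO libraries, a log2 fold change of -0.96 (edgeR, SE 0.347, adjusted p = 0.0362). For the row of bases 14 to 30, the CPM were 1326, 776 and 840.0 in the WT and 115, 345 and 656 in the KO libraries. Its log2 fold change was -1.38 (edgeR, SE 0.510, adjusted p = 0.0388), from 13 counts per library on average. It was -0.82 without KO replicate 1 (edgeR adjusted p = 0.216) and -2.08 without KO replicate 3 (edgeR adjusted p = 0.0256). The row of bases 15 to 30 went from 1165, 1242 and 896 CPM to 517, 553 and 606 CPM, with a log2 fold change of -0.96 (edgeR, SE 0.339, adjusted p = 0.0327). In each of the 3 rows every KO library was below every WT library, which held for 30.6% of all tested fragments. They share their last 16 bases and are not independent of each other. The calls held in 4, 3 and 3 of 12 alternatives, and DESeq2 called 0 of the 3.

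Internal members that began at bases 13 to 15 and ended at base 30 made up 35.9% ± 2.27 of all internal Glu counts in WT and 18.3% ± 2.23 in KO libraries in the major form. In the minor form, whose single rows were too rare to pass the filter, they made up 13.2% ± 1.17 and 7.27% ± 4.30. Neither form overlapped between groups in this share. In counts, the minor-form rows summed to 37, 17 and 19 in WT and 6, 16 and 11 in KO replicates 1 to 3.

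Summed together, internal members that ended before base 30 took a larger share in the knockout. Those that ended at base 26 or before made up 7.36%, 9.40% and 15.3% of the internal Glu counts in WT and 22.9%, 24.2% and 26.2% in KO replicates 1 to 3, from 22, 11 and 23 counts against 35, 32 and 50. The groups did not overlap, and without WT replicate 3 the WT mean was 8.38%, against 24.4% in the knockout. Those that ended at bases 27 to 29 made up 25.7% ± 3.04 in WT and 37.8% ± 7.11 in KO libraries, also without overlap. For ends at base 26 or before, the major form alone had means of 7.56% ± 3.29 and 21.1% ± 0.788, while those of the minor form were 3.14% ± 1.03 and 3.31% ± 1.19, with overlap, from 32 counts in all. The row of bases 8 to 26 had 3, 2 and 1 counts in the WT and 12, 3 and 15 in the KO libraries. For the row of bases 10 to 26 these were 2, 0 and 2 against 6, 7 and 12. Relative to library totals, every KO library was above every WT library in both rows, which were too rare for the test and reached the level of the count filter in KO libraries only. Both end at the same base as the 26-base 5' row that rose, and the 3 called internal rows end at the same base as the 30-base minor-form row that fell. These groupings by last base were chosen after the values were seen.

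By first base, internal members that began at bases 8 to 12 made up 14.1% ± 3.87 of internal Glu counts in WT and 32.6% ± 5.94 in KO libraries, and those that began at bases 13 to 16 made up 66.4% ± 6.89 and 41.4% ± 7.44. Both shares were without overlap between groups. Those that began at bases 2 to 7, which lack only the first bases of the tRNA, made up 19.5% ± 4.18 and 26% ± 1.95, also without overlap. Taken singly, first bases 3 to 7, 9, 11, 12, 14 and 16 overlapped between groups. As shares of 1 total these values move together, and these bins were not planned. Of the 122 internal members, 119 were not tested, with totals between 1 and 44 counts over all 6 libraries. The most abundant minor-form internal row, bases 15 to 30 (tRF-16-7JV2Y8D), had 19, 6 and 6 counts in the WT and 1, 6 and 6 in KO replicates 1 to 3, with overlap. Of the 122, 13 had bases outside the shared stretch that match neither form, and these held 35 counts. They have T at base 19 and are counted with the major form throughout. The shortest stretch shared by any internal member was 14 bases, in 2 rows, and 0 internal rows shared 13.

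The calls depended on single libraries. The 6 members lower in the knockout became 0 without WT replicate 1, KO replicate 1 or KO replicate 2 (edgeR, with 0, 0 and 2 at an unadjusted p under 0.05). They became 1 without KO replicate 3, 2 without WT replicate 2 and 7 without WT replicate 3. With DESeq2's size factors in edgeR 1 was lower, and with DESeq2's Wald test 1. Those size factors moved the median over all fragments tested from -0.01 to 0.10 (log2). Of the 2 higher members, the 25-base row kept its call without each library in turn. The 26-base row lost its call without WT replicate 2, KO replicate 1 or KO replicate 2 (log2 fold changes of 0.71, 0.96 and 0.89, edgeR adjusted p = 0.103, 0.0663 and 0.0990).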

How the data were processed

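Size-selected small RNA libraries of total RNA were sequenced as single reads, per the labels' protocols. The authors deposited unnormalized counts of reads for each fragment in 6 libraries. MINTmap assigned the reads and DESeq2 compared the groups, per the labels' design text. The submitters' processing notes also name FastQC, cutadapt and GRCh38, and for all of these the version is not given in the sources used here. No molecular identifiers mark the reads, so duplicate reads were not measured. Libraries of the same group differed by more than counting error, and the cause was not tested.

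All 3443 identifiers were decoded by the MINTbase code to 3443 different sequences of 16 to 50 bases. Sharing was measured against the longest 5' row of each form, and these were matched exactly to GENCODE 29 transcripts, both strands, and placed with the RefSeq gene table (GRCh38.p14). Counts were filtered with filterByExpr (minimum count 10), scaled by trimmed means (TMM) and tested with edgeR 4.0.16 in R 4.3.3 (quasi-likelihood, two-sided, knockout minus wild-type, Benjamini-Hochberg over all tested, threshold 0.05). Standard errors are the log2 fold change divided by the root of F, and 95% intervals use the t quantile of the fit's degrees of freedom. Alternatives included DESeq2 1.42.0, other scalings and filters, a replicate block and leaving out each library. On simulated counts of this comparison (224 fragments tested), it called 2 of 16 fragments changed 2-fold, 13 of 16 changed 4-fold, 16 of 16 changed 8-fold and 3 of 176 unchanged. The simulation gave every fragment the same dispersion, left most fragments unchanged and had no library that stood apart. Its counts are therefore not the error rates of the real comparison.

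Members and lists were chosen with earlier results of these data known. Named members were those tested with a mean of 50 or more counts or an adjusted p under 0.05, plus the longest and the most abundant row of each set. Some of these, and the values that rest on them alone, are not reported here. The other rows named, among them the minor-form row of 28 bases and the internal rows that end at base 26, were chosen after their values were seen. The planned ratio of Glu-CTC to Glu-TTC rows could not be computed, and the ratio of the 2 forms, chosen after seeing the data, took its place.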

Additional observations from a re-analysis of the deposited data

How the results depend on the processing

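All 8 called Glu members kept their direction in every alternative that tested them. Of 150 alternative values of the 12 tested members, 89 stayed on the same side of the threshold, 57 were no longer past it, 1 came past it and 3 changed sign, all of rows of 28 bases that were not called (0.08 when WT replicate 1 was left out for the major form, and -0.13 and -0.21 when WT replicate 3 or KO replicate 3 was left out for the minor form). With each library left out these rows ranged from -0.29 to 0.08 and from -0.21 to 0.31. The 2 higher members became 1 with library totals only, 1 with a replicate block and 0 with 50 or more counts in 3 libraries, where 6 were tested (1 at an unadjusted p under 0.05). With each library left out they were 1 to 3, a count that in 4 fits includes the internal row of bases 8 to 26, which entered through KO libraries only. The 6 lower members became 1 with DESeq2's size factors, 1 with DESeq2's Wald test, 1 with a replicate block, 2 with 50 or more counts in 3 libraries and 0 with no low-count filter, where all 142 were tested (7 at an unadjusted p under 0.05). With each library left out they were 0 to 7. Over all fragments the calls were 60 higher and 66 lower, 65 and 53 with DESeq2's size factors, 54 and 31 with its Wald test, 60 and 42 with no low-count filter, 21 and 17 with the stricter filter, and 47 and 29 without KO replicate 1. The cause was not tested, other than that fewer fragments or libraries enter some fits. Same-numbered libraries deviated together at r = 0.371, -0.0705 and 0.107, and differently numbered ones at -0.273 to 0.186. The numbers were not taken to pair the libraries, although 0.371 was the highest of these values. Whether they are paired is not settled by this.

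With libraries left out in turn, the difference in the share of 5' Glu counts was -3.92 to -2.00 percentage points, that in the internal share -0.0681 to 0.0167, that in mean length -0.438 to -0.350 bases and that in the share of rows of 26 or fewer bases 5.78 to 8.51 points. The ratio of the forms changed by -0.27 to 0.10 at 28 bases (0.10 without KO replicate 3). At totals of 15742 to 32754 counts, rows with a few counts per library did not pass the filter of the main test. The fit with no low-count filter did include them.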

Other observations

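The minor form was more common among internal than among 5' Glu counts in all 6 libraries, at 24.4%, 30.8% and 25.3% of internal counts in WT and 17.0%, 27.3% and 15.2% in KO replicates 1 to 3, against 6.26% to 8.26% of 5' counts. All 10 internal rows that run past base 30 have the minor form, and with 72 counts they make up part of this. The difference was seen in the data and was not tested.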
